A study of Homo sapiens with 6 samples.

Results

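The proteasome is the cytosolic and nuclear machine that degrades ubiquitin-tagged proteins. Its genes were followed here in D283 Med, a human Group 3 medulloblastoma line, after transfection with LNA GapmeRs, modified DNA oligomers that pair with an RNA and have RNase H cut it. The members were all protein-coding genes whose symbol begins with PSMA, PSMB, PSMC, PSMD, PSME, PSMF or PSMG followed by a number. The symbol rule matched 101 of 60664 genes, of which 50 were protein-coding members, 44 were pseudogenes and 7 were long non-coding genes. Of the 50 members, 46 passed the low-count filter and were tested among 14673 genes. PSMA8, PSMB8, PSMB9 and PSMB11 did not pass it.

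The study compared 3 KD libraries, from cells in which the long non-coding RNA lncMB3 was knocked down, with 3 SCR libraries from control cells. Both groups were transfected with GapmeRs and came from the same MYC-amplified line, and the labels tell them apart only as KD or SCR. No label ties lncMB3 to a gene identifier, so its own level was not analysed here and directions rest on the group labels. Nothing states whether replicates were separate cultures, and the p-values may then measure technical spread only. D283 Med is a cultured line without the other cells of a tumour.

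The proteasome has a barrel-shaped core particle, built from outer rings of alpha subunits and inner rings of beta subunits. Peptide bonds are cut inside the barrel by PSMB5, PSMB6 and PSMB7. A regulatory particle caps the barrel, with a base of ATPases that unfold the substrate and a lid that removes ubiquitin. Dedicated chaperones assemble the rings and the base, other activators can replace the cap, and interferon replaces the catalytic subunits by PSMB8, PSMB9 and PSMB10. Cancer cells with high protein synthesis are known to depend on this machine, and the transcription factor NFE2L1 raises its genes together when proteasome activity is short.

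Total gene counts ran from 7765826 in KD library 1 to 20035834 in SCR library 2, and precision at low levels was poorest in KD library 1. Mitochondrially encoded genes took 5.38% to 6.05% of counts in KD and 5.84% to 6.37% in SCR libraries. Of the Group 3 markers all 8 were measured, with MYC at 1118 to 1259 CPM (counts scaled to a common library size by TMM) in KD and 1103 to 1278 CPM in SCR libraries. Of these markers 5 were called lower in KD and 1 higher, at an adjusted p under 0.05 by the test named below. Over all genes tested 15.9% were called lower and 15.9% higher. The log2 changes, KD over SCR, were -1.07 for NEUROD1, -0.69 for NRL, -0.59 for IMPG2, -0.44 for CRX and -0.28 for OTX2. GABRA5 was the marker called higher, at 0.41, and MYC and NPR3 were not called. Markers of other cells were low, with 6 of 7 blood cell markers and 4 of 4 glial markers at or under 3 counts in every library. The glial markers summed to 0 to 0.156 CPM in KD and 0.0978 to 0.117 CPM in SCR libraries, with MBP and MOG at 0. The summed blood cell level was 0.261 to 0.520 CPM in KD and 0.176 to 0.293 CPM in SCR libraries, and PTPRC, CD3E and HLA-DRA had no count in KD libraries. Of the fibroblast markers COL1A1 and DCN were lower in KD, the whole list of 4 summing to 14.1 to 17.8 CPM in KD and 19.6 to 22.5 CPM in SCR libraries, and COL3A1 had no count in any library. Of 3 endothelial markers 2 were at or under the same limit and CDH5 was at 0, the list summing to 0.417 to 0.730 CPM in KD and 0.782 to 0.937 CPM in SCR libraries. The part of these cells in the results was not tested.

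Proteasome genes were mostly higher in KD cells in the core and regulatory particles. By edgeR's quasi-likelihood test with Benjamini-Hochberg adjustment over all genes tested and a threshold of 0.05, 32 of 46 tested members rose and 1 fell. Of the 31 tested constitutive genes of the core and regulatory particles 28 rose and 0 fell. Of the other 15 tested members 4 rose and 1 fell. Over all 14673 genes 31.7% were called, 15.9% higher and 15.9% lower (2328 and 2329 genes). Under upper-quartile scaling the split over all genes moved to 1773 higher and 2803 lower, and 29 members rose and 1 fell. The median log2 change of the members was 0.40, a fold of 1.32, against 0.000282 over all genes tested. In 34 members the 3 KD libraries all lay above the 3 SCR libraries, where 22.9% of all genes did, and in 1 member they all lay below, where 23.1% of all genes did. The members together took 0.774%, 0.827% and 0.781% of all counts in KD libraries 1 to 3, against 0.677%, 0.606% and 0.581% in SCR libraries 1 to 3. SCR library 1 was therefore the control nearest to KD. CPM is a share of a library, so a change in RNA per cell and a change in the mix of cells cannot be told apart.

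**Figure D1:**
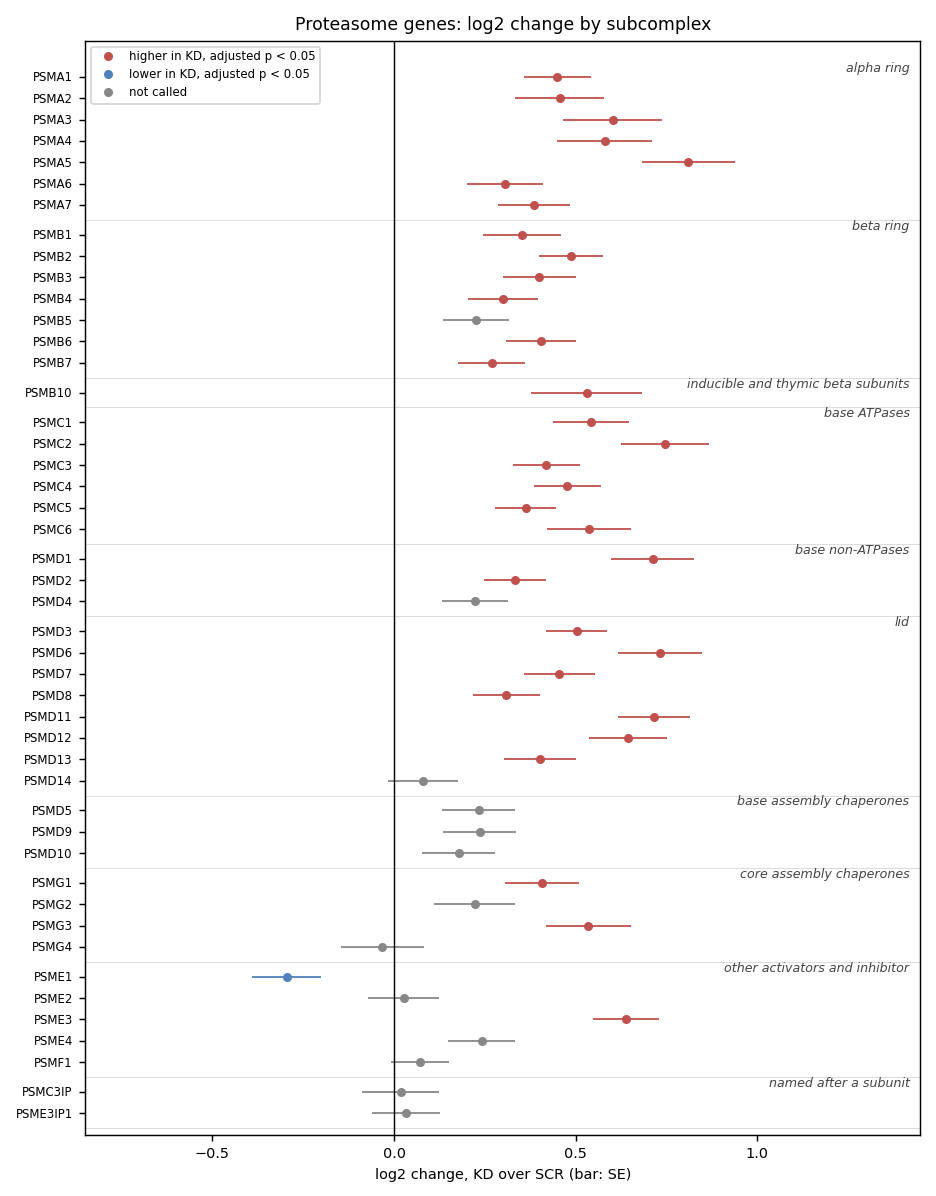
Log2 change of the 46 tested proteasome genes, KD over SCR, with the standard error as a bar, by subcomplex. The alpha ring, the base ATPases and most of the lid lie right of 0, while PSME1 is the called gene left of 0 and PSMD14 lies near 0 among the lid subunits.

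Of the 33 called members 22 kept their call without each library in turn. PSMA2, PSMA6, PSMA7, PSMB1, PSMB4, PSMB7, PSMB10, PSMD2, PSMD8, PSMG1 and PSME1 lost it without at least 1 library, and none of the 33 changed sign under any alternative.

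The alpha ring, which gates entry to the barrel, rose as a whole among its measured genes. All 7 tested alpha genes were called higher, with log2 changes from 0.31 to 0.81 and a median of 0.46. PSMA5 (chromosome 1, 109399031 to 109426427, GRCh38) was at 112, 132 and 113 CPM in KD libraries 1 to 3, against 84.5, 63.7 and 55.6 CPM in SCR libraries 1 to 3. Every KD library thus exceeded every control, and SCR library 1 was the highest control. The log2 change of PSMA5 was 0.81 ± 0.13 (SE, adjusted p = 0.000519), a rise of 1.75-fold. PSMA3 rose 1.52-fold, PSMA4 1.49-fold, PSMA2 1.37-fold, PSMA1 1.37-fold and PSMA7 1.31-fold. PSMA2 and PSMA6 share exon bases with unnamed same-strand protein-coding genes, so part of their counts is uncertain. PSMA1 shares 814 exon bases with such a gene, which held at most 5 counts in a library. PSMA6, at 198, 261 and 211 CPM in KD and 198, 175 and 169 CPM in SCR libraries, had the smallest change (log2 0.31 ± 0.11, adjusted p = 0.0384). KD library 1 and SCR library 1 nearly coincide for PSMA6, at 198.5 and 198.4 CPM. Leaving out SCR library 2 or SCR library 3 reduced the called alpha genes to 4. Over all genes tested the share called higher was 8.54% and 9.46% in these settings, against 15.9% with all libraries. PSMA8, the testis-specific alternative to PSMA7, had 0 counts in all KD libraries and 2 counts, in SCR library 2, among the controls.

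The beta ring holds the proteolytic sites, and 6 of its 7 constitutive genes were called higher. Their log2 changes ran from 0.23 to 0.49 with a median of 0.35. PSMB2 (chromosome 1, 35599544 to 35641844), a non-catalytic subunit, was at 234, 220 and 221 CPM in KD and 180, 152 and 150 CPM in SCR libraries (log2 change 0.49 ± 0.09, adjusted p = 0.00124). Its groups stood well apart. PSMB5 (chromosome 14, 23016543 to 23035230), the chymotrypsin-like subunit and the main target of bortezomib, was at 333, 404 and 348 CPM in KD and 325, 305 and 299 CPM in SCR libraries. The groups of PSMB5 did not overlap, but its log2 change of 0.23 ± 0.09 was not called (adjusted p = 0.0699), although DESeq2 called it (adjusted p = 0.0451). The other catalytic genes were called, PSMB6, the caspase-like subunit, with a rise of 1.32-fold (adjusted p = 0.00636) and PSMB7, the trypsin-like subunit, with 1.21-fold (adjusted p = 0.0377). The structural subunits PSMB3, PSMB1 and PSMB4 rose 1.32-fold, 1.28-fold and 1.23-fold. Leaving out KD library 2, KD library 3, SCR library 2 or SCR library 3 reduced the called beta genes to 3. The share called higher over all genes tested was 14.6%, 10.8%, 8.54% and 9.46% in these settings, against 15.9% with all libraries.

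Of the catalytic subunits that interferon brings in, PSMB8 and PSMB9 were nearly absent and PSMB10 was present at a low level. PSMB8 had 0 counts in each KD library and 0, 2 and 1 counts in SCR libraries 1 to 3, and PSMB9 had 0 counts in each KD library and 0, 1 and 0 counts in the SCR libraries. A count of 0 allows up to 3 counts, which is 0.390, 0.156 and 0.156 CPM in KD libraries 1 to 3 (counting error only). Their constitutive counterparts PSMB5 and PSMB6 averaged 362 ± 37.5 and 88.9 ± 10.3 CPM in KD libraries (SD, n = 3). No ratio of PSMB8 to PSMB5 or of PSMB9 to PSMB6 was formed, because both groups were at or under that limit. PSMB11, the thymic subunit, had no count in any library. PSMB10, the inducible counterpart of PSMB7, was detected at 11.4, 11.2 and 9.02 CPM in KD and 8.37, 6.11 and 7.26 CPM in SCR libraries (log2 change 0.53 ± 0.15, adjusted p = 0.0163). Its call was lost without KD library 2 (adjusted p = 0.0604) and without SCR library 2 (adjusted p = 0.0959). Per length, PSMB10 stood at 4.35%, 3.52% and 3.36% of PSMB7 in KD libraries and 3.38%, 2.56% and 3.32% in SCR libraries. These shares overlapped, and the log2 ratio differed by 0.28 (exact 2-sided permutation test, p = 0.2, where the smallest possible is 0.1). The difference was 0.15 without SCR library 2 and 0.17 without KD library 1. PSMB10 shares 644 exon bases with an unnamed same-strand protein-coding gene that held 18, 81 and 78 counts in KD and 25, 35 and 17 counts in SCR libraries, so the division of reads between them is uncertain.

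The base of the regulatory particle rose in all of its motor subunits. All 6 ATPase genes, PSMC1 to PSMC6, were called higher, with log2 changes from 0.36 to 0.75 and a median of 0.51, also without any single library. PSMC2 (chromosome 7, 103344254 to 103369395) was at 72.3, 89.98 and 78.3 CPM in KD and 57.1, 46.9 and 40.01 CPM in SCR libraries (log2 change 0.75 ± 0.12, adjusted p = 0.000578). The 3 KD libraries lay above the controls. PSMC1 rose 1.46-fold, PSMC6 1.451-fold, PSMC4 1.39-fold, PSMC3 1.34-fold and PSMC5 1.29-fold. PSMC5 shares 874 exon bases with FTSJ3, and PSMC1 shares 4671 annotated exon bases with NRDE2, each on the opposite strand. FTSJ3 held 2052, 4899 and 4732 counts in KD and 3203, 3158 and 2725 counts in SCR libraries. PSMC5 held 1899, 4656 and 4398 counts in KD and 3377, 3859 and 3087 counts in SCR libraries. The part of FTSJ3 in the value of PSMC5 was not tested. The library kit keeps strand, but the counting is not stated to use it, so reads of such partners cannot be told apart with certainty. PSMD1 (chromosome 2, 231056864 to 231172827), a large scaffold of the base, was at 311, 322 and 318 CPM in KD and 237, 177 and 166 CPM in SCR libraries. That is a rise of 1.64-fold (log2 change 0.71 ± 0.11, adjusted p = 0.000561), with SCR library 1 again nearest to KD. PSMD2, the scaffold that docks ubiquitin shuttles, rose 1.26-fold (adjusted p = 0.00864), a call lost without SCR library 2 (adjusted p = 0.0671). PSMD4, a ubiquitin receptor, was at 296, 338 and 282 CPM in KD and 276, 262 and 248 CPM in SCR libraries and was not called (log2 change 0.22 ± 0.09, adjusted p = 0.0717). It was called by DESeq2 (adjusted p = 0.0493) and without SCR library 1 (adjusted p = 0.0499).

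**Figure D2:**
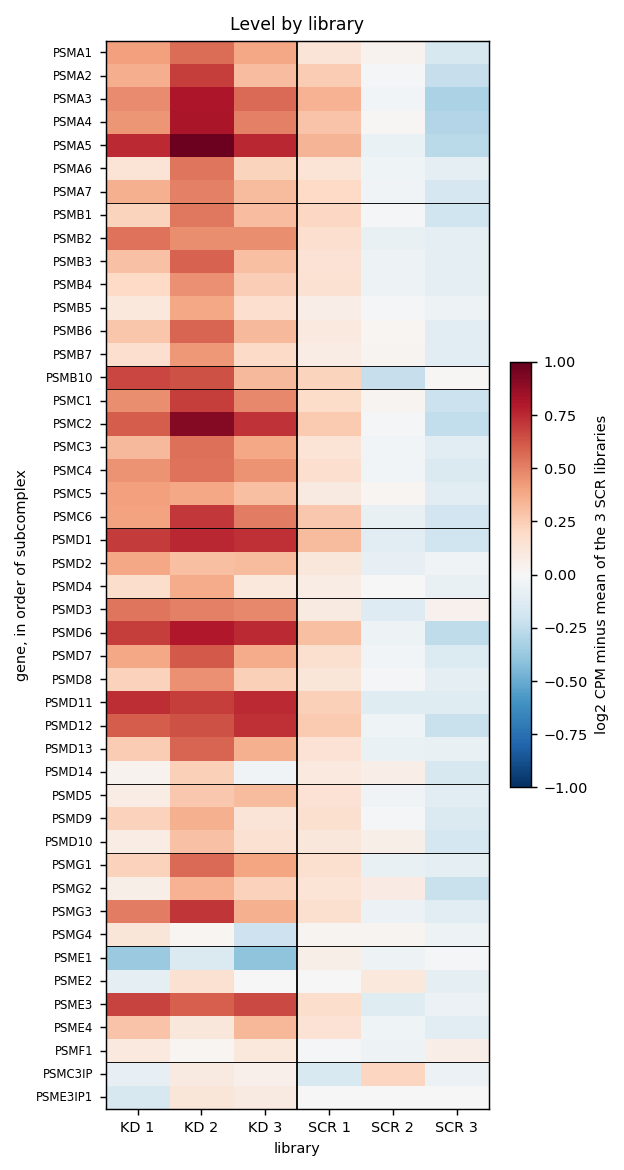
Level of each tested proteasome gene in each library as log2 CPM minus the mean of the 3 SCR libraries, genes in order of subcomplex. KD library 2 is the most intense column in most core particle genes, SCR library 1 is the reddest of the control columns, and PSME1 is blue in the KD columns.

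The lid, which removes ubiquitin chains before a substrate enters, had 7 of 8 genes called higher. Its median log2 change was 0.48. PSMD11 (chromosome 17, 32444261 to 32483318), a lid scaffold that stabilises the joined particles, was at 364, 352 and 365 CPM in KD and 257, 201 and 201 CPM in SCR libraries. The KD libraries were close together and far above the controls (log2 change 0.72 ± 0.10, adjusted p = 0.000234). PSMD6 (chromosome 3, 64010549 to 64024010) was at 102, 111 and 106 CPM in KD and 78.2, 61.1 and 53.3 CPM in SCR libraries (log2 change 0.73 ± 0.12, adjusted p = 0.00053). PSMD12 rose 1.56-fold, PSMD3 1.418-fold, PSMD7 1.37-fold, PSMD13 1.32-fold and PSMD8 1.24-fold. PSMD14 (chromosome 2, 161308038 to 161411717), the metalloprotease that cuts the ubiquitin chain off, was the exception. It was at 278, 320 and 266 CPM in KD and 290, 284 and 243 CPM in SCR libraries, and these ranges overlapped (log2 change 0.08 ± 0.10, adjusted p = 0.563).

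Chaperones that build the proteasome gave mixed values. Over all genes tested 15.9% were called higher and 15.9% lower. Groups of 3 and 4 genes are too small to read their counts against that share, so single genes are described. Of the 3 genes for base assembly chaperones, PSMD5, PSMD9 and PSMD10 (gankyrin), 0 were called by edgeR, 0 by DESeq2 and 0 by limma-voom, and 2 had an unadjusted p under 0.05. Their log2 changes were 0.23 ± 0.10, 0.24 ± 0.10 and 0.18 ± 0.10, and PSMD5 and PSMD9 were called without SCR library 1 (adjusted p = 0.0371 and 0.0289). Of the 4 chaperones of the core particle 2 were called higher. PSMG1, which with PSMG2 guides formation of the alpha ring, was at 59.6, 75.0 and 66.6 CPM in KD and 56.8, 48.2 and 47.6 CPM in SCR libraries (log2 change 0.41 ± 0.10, adjusted p = 0.00828). The call of PSMG1 was lost without SCR library 2 (adjusted p = 0.0527). PSMG3 rose 1.449-fold (adjusted p = 0.00379), while its dimer partner PSMG4 had a log2 change of -0.03 ± 0.12 (adjusted p = 0.858). PSMG4 shares 1388 exon bases with SLC22A23 on the opposite strand, which held 68, 126 and 115 counts in KD and 238, 375 and 322 counts in SCR libraries. It also shares 174 bases with TUBB2B, at 482, 1326 and 1084 counts in KD and 1317, 1976 and 1704 counts in SCR libraries. Without a stated strand setting, the part of these genes in the value of PSMG4 was not tested. PSMG2 was at 28.1, 34.3 and 31.7 CPM in KD and 29.6, 28.6 and 23.1 CPM in SCR libraries, which overlap (adjusted p = 0.143), and it shares 468 exon bases with CEP76 on the opposite strand.

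Of the 5 genes for other activators and the inhibitor PSMF1, 1 was called higher and 1 lower. Over all genes tested 15.9% were called in each direction. These shares are near each other and are not read as a result about the group, so its single genes are described. PSME3 (chromosome 17, 42824385 to 42843758), the nuclear activator that works without ubiquitin, was at 407, 385 and 402 CPM in KD and 288, 234 and 245 CPM in SCR libraries. That is a rise of 1.56-fold (log2 change 0.64 ± 0.09, adjusted p = 0.00027), with no overlap. PSME1 (chromosome 14, 24136158 to 24138967), a subunit of the interferon-induced activator, was at 29.3, 34.2 and 28.6 CPM in KD and 39.3, 36.6 and 37.6 CPM in SCR libraries. It was the called member that fell (log2 change -0.30 ± 0.10, adjusted p = 0.029), and the call was lost without KD library 1, KD library 3 or any of the SCR libraries, with adjusted p from 0.0677 to 0.11. PSME2, its partner in that activator, was at 29.01, 34.3 and 30.8 CPM in KD and 30.7, 33.2 and 28.8 CPM in SCR libraries (log2 change 0.03 ± 0.10, adjusted p = 0.858). PSME4, the activator known for acetylated histones, was not called (log2 change 0.24 ± 0.09, adjusted p = 0.0582), but was called by DESeq2 (adjusted p = 0.0441), without KD library 2 (adjusted p = 0.0222) and without SCR library 1 (adjusted p = 0.0182). PSMF1, which binds the core particle and inhibits it in the test tube, was at 99.1, 93.8 and 99.8 CPM in KD and 91.8, 89.6 and 96.8 CPM in SCR libraries (adjusted p = 0.518). PSME3 shares 300 exon bases with BECN1 and PSME2 shares 216 with RNF31, each on the opposite strand. PSMC3IP, a recombination factor, and PSME3IP1, a partner of PSME3, match the symbol rule but are not proteasome subunits. Their log2 changes were 0.02 ± 0.11 (adjusted p = 0.915) and 0.03 ± 0.09 (adjusted p = 0.812).

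Summed over a subcomplex, the KD libraries lay above the controls in every part of the core and regulatory particles. The alpha ring summed to 1129, 1366 and 1143 CPM in KD libraries 1 to 3, against 1010, 854 and 756 CPM in SCR libraries 1 to 3. The lid summed to 1853, 1979 and 1854 CPM in KD and 1533, 1334 and 1293 CPM in SCR libraries. Base assembly chaperones overlapped, at 107, 121 and 112 CPM in KD and 108, 98.3 and 88.5 CPM in SCR libraries. The order of the controls was the same in all 3 of these sums, with SCR library 1 highest and SCR library 3 lowest. It was not the same in every group. The other activators and PSMF1, for example, summed to 640, 562 and 569 CPM in SCR libraries 1 to 3.

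**Figure D3:**
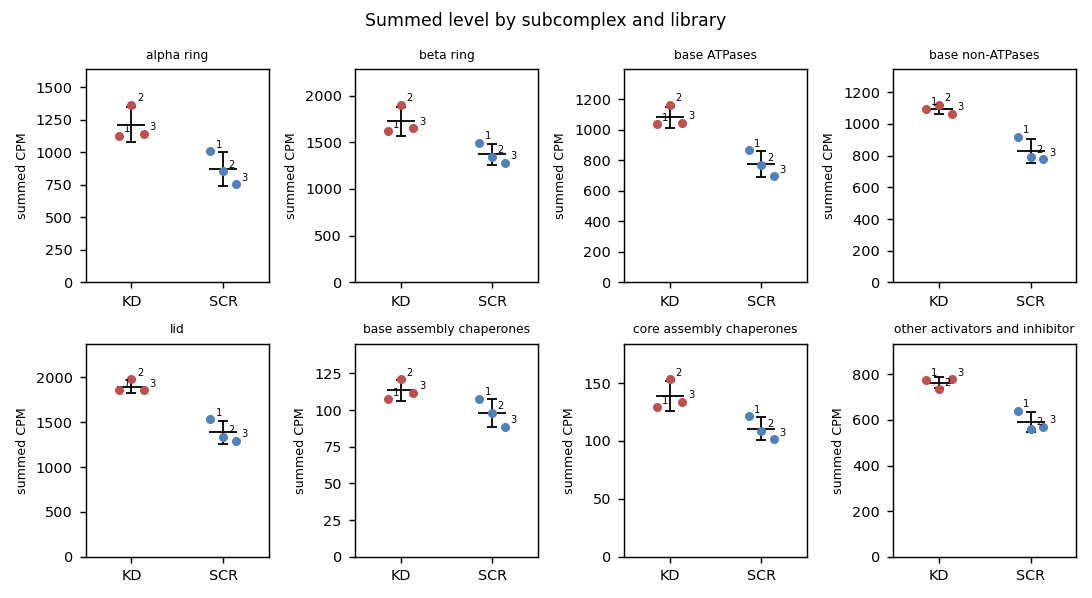
Summed CPM of the genes of each subcomplex, KD left of SCR, with each library as a numbered point and the mean with SD (n = 3) in black. The base ATPases and the lid show no overlap between the groups, and the base assembly chaperones do.

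The subunits of a ring are present in equal numbers in the protein complex. Their transcripts were not equal per length, with the longest principal transcript taken as the length. TPM values, which divide each count by transcript length, ran in the alpha ring from 62.8 to 67.8 TPM for PSMA5 and from 553 to 570 TPM for PSMA7 in KD libraries. In SCR libraries the levels were 32.96 to 47.3 TPM for PSMA5 and 414 to 504.3 TPM for PSMA7. These levels rest on lengths of 3729 bases for PSMA5 and 996 bases for PSMA7. In CPM, which leaves length out, PSMA5 averaged 119 in KD and 67.9 in SCR libraries, and PSMA7 275 and 211. The size of the ratios below depends on the lengths taken, and other lengths were not tried for them. The highest TPM was 8.95, 8.41 and 8.66 times the lowest in KD libraries 1 to 3, against 10.7, 12.01 and 12.6 times in SCR libraries 1 to 3. In the beta ring, from PSMB2 to PSMB4, the same ratio was 3.99, 5.05 and 4.36 in KD and 5.04, 5.16 and 5.06 in SCR libraries, where the groups overlap. Among base ATPases the ratio was 6.61, 5.54 and 5.67 in KD and 6.70, 7.77 and 8.34 in SCR libraries, lowest for PSMC2 in each library. TPM values shift the median log2 change over the 14466 tested genes with a TPM above 0 in every library by -0.0736 relative to CPM, and the ratios within a library are free of that shift.

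Across the 31 tested constitutive genes of the core and regulatory particles, genes with a lower level per length had larger log2 changes. Pearson's r between log2 TPM and log2 change was -0.753 and Spearman's rho -0.796, as a description across genes that share libraries. The 10 genes with the lowest TPM had log2 changes from 0.40 to 0.81 with a median of 0.56, and the 10 with the highest TPM from 0.22 to 0.50 with a median of 0.31. Over the 3004 protein-coding genes tested in the same TPM range, r was 0.0916. Transcript length moved with the change too (r = 0.555 in the proteasome genes and -0.14 in the 3004 genes), and with CPM, which leaves length out, r was -0.491. With the median length of each gene's basic transcripts in place of the longest principal transcript, a choice made after seeing the data, r was -0.719. The parts of level and length in the size of the change were not tested apart.

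**Figure D4:**
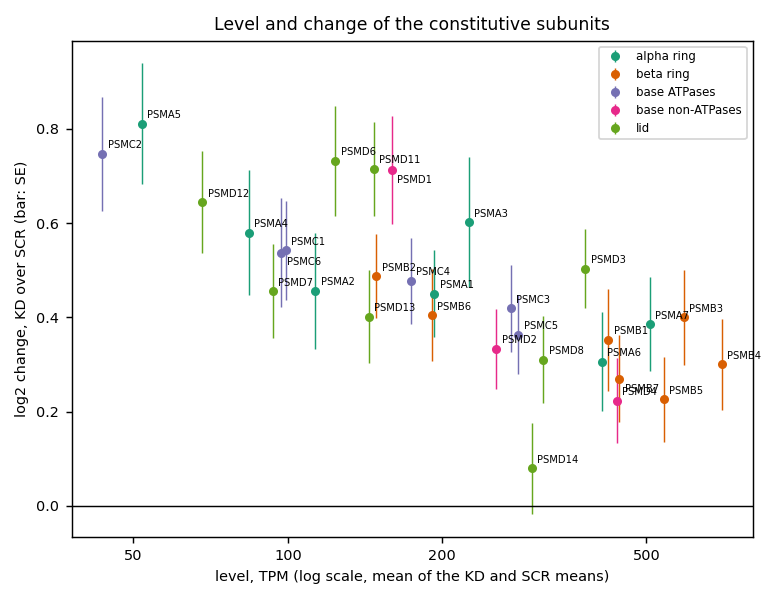
Log2 change, KD over SCR, with its SE against the level per length in TPM on a log axis, for 31 constitutive genes of the core and regulatory particles. PSMC2 and PSMA5 are lowest in level and near the top in change, while PSMB4 is highest in level at a log2 change of 0.30 and PSMD14 lies below the rest.

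Genes that work with the proteasome but have no PSM symbol were read from lists. Beside each list stands the share over all genes tested, 15.9% called higher and 15.9% called lower. Of 13 partners 8 were called higher and 0 lower, with a median log2 change of 0.32. ADRM1, a ubiquitin receptor of the base, was at 162, 180 and 153 CPM in KD and 112, 86.9 and 85.3 CPM in SCR libraries. This was a rise of 1.74-fold (log2 change 0.80 ± 0.11, adjusted p = 0.000199), and the groups were far apart. POMP, the chaperone that matures the beta ring, rose 1.48-fold, USP14, a deubiquitinase on the base, 1.33-fold, and SEM1, the smallest lid subunit, 1.41-fold. Of the 7 tested ubiquitin shuttles 3 were called higher and 0 lower, DDI2 at 1.55-fold, UBQLN1 at 1.33-fold and RAD23B at 1.203-fold, while MIDN was not called (log2 change 0.26, adjusted p = 0.0595). Of 12 genes for VCP, the segregase that extracts proteins ahead of the proteasome, and its adaptors, 5 were called higher and 0 lower. VCP itself was at 645, 601 and 618 CPM in KD and 488, 393 and 398 CPM in SCR libraries (log2 change 0.54 ± 0.10, adjusted p = 0.000996), and UFD1 rose 1.40-fold, YOD1 1.43-fold and NSFL1C 1.29-fold.

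Of 13 genes around NFE2L1, 2 were called higher and 3 lower, against 15.9% called in each direction over all genes tested. These shares are near the background and are not read as a result about the pathway, so only its single genes are described. NFE2L1 was at 392, 369 and 365 CPM in KD and 447, 541 and 517 CPM in SCR libraries, so its transcript fell (log2 change -0.42 ± 0.09, adjusted p = 0.00341) where the proteasome genes rose. NFE2L1 is known to be controlled largely at the protein level, which these counts do not measure. NFE2L2, its relative in the oxidative stress response, was 98.9, 98.4 and 94.8 CPM in KD and 125, 137 and 114 CPM in SCR libraries (log2 change -0.37 ± 0.09, adjusted p = 0.00589). DDI2, the protease that cuts NFE2L1 into its active form, was at 133, 92.4 and 127 CPM in KD and 85.6, 69.5 and 71.1 CPM in SCR libraries (adjusted p = 0.00203). MAFG, a small MAF protein that pairs with NFE2L1 on DNA, rose 1.28-fold (adjusted p = 0.00893). The third gene of the list that fell was BACH1, a repressor that competes for small MAF proteins, which is named here because its values were seen (log2 change -0.28, adjusted p = 0.0475).

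Other multisubunit machines were set beside these values, where 15.9% of all genes tested were called higher and 15.9% lower. Their lists were chosen with earlier results of these data known. The COP9 signalosome, which is built like the lid, had 6 of 10 genes called higher and 0 lower, with a median log2 change of 0.34. COPS9, COPS5, COPS8 and COPS2 rose 1.52-fold, 1.37-fold, 1.31-fold and 1.28-fold. The TRiC/CCT chaperonin, which folds actin and tubulin, had 7 of 8 genes called higher and 0 lower, with a median of 0.44. CCT6A, TCP1, CCT2 and CCT5 rose 1.54-fold, 1.503-fold, 1.38-fold and 1.35-fold. The difference between these machines and the proteasome was not tested.

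**Figure D5:**
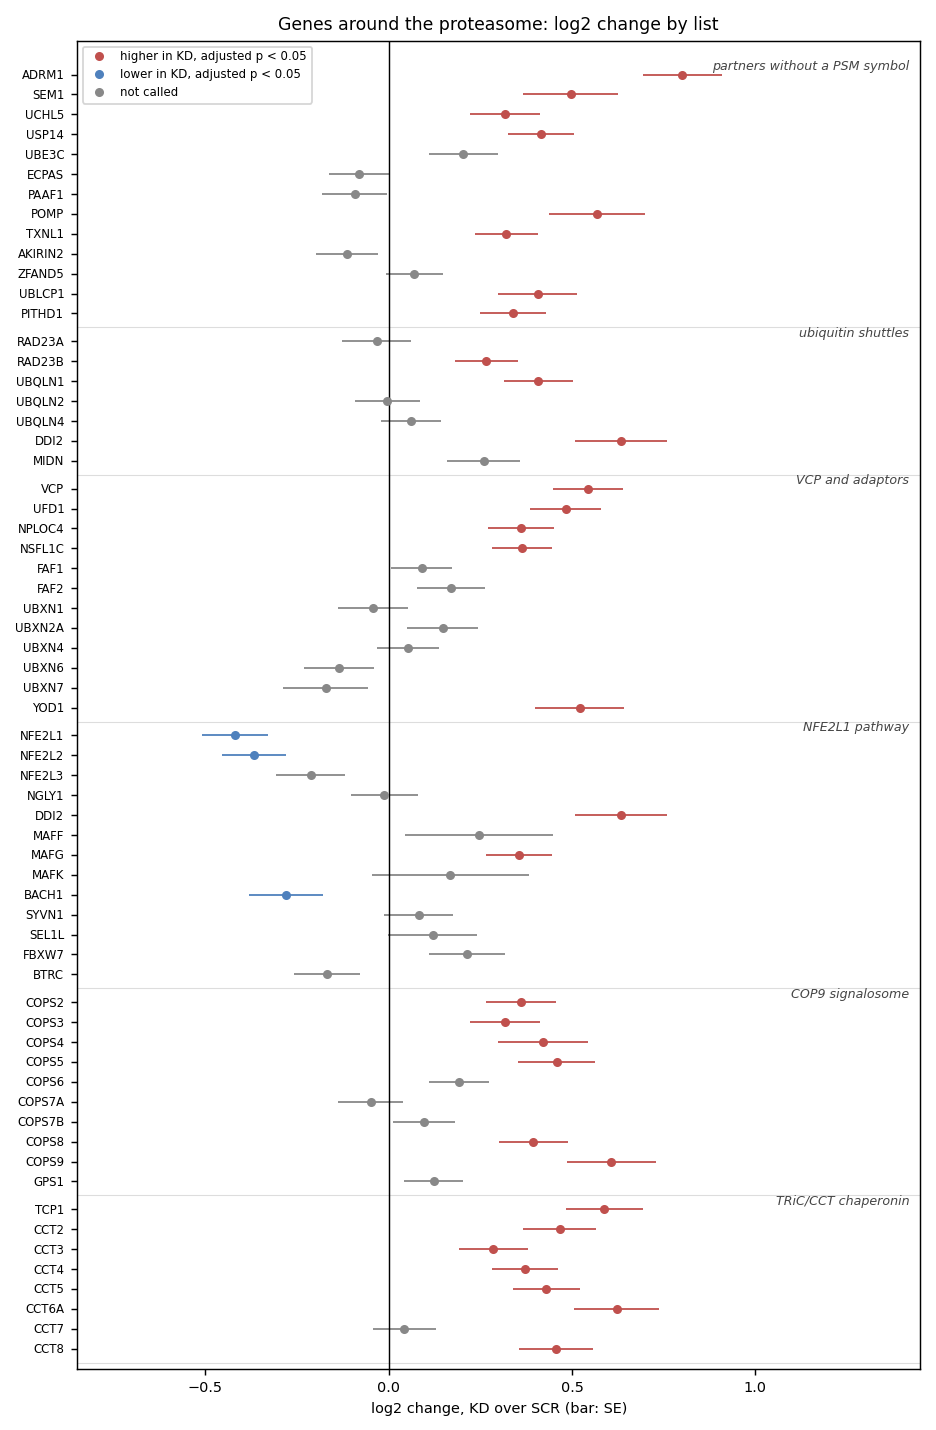
Log2 change, KD over SCR, with its SE for genes of 6 lists that surround the proteasome, DDI2 standing in 2 of them. ADRM1 is farthest right at 0.80 and NFE2L1 farthest left at -0.42.

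Promoters were read because the members moved together and because NFE2L1 acts through antioxidant response elements. RefSeq promoter windows on GRCh38.p14, from 250 bases before to 50 bases after a start, were matched by symbol for 44 of 50 members, in 55 windows. PSMA7, PSMB1, PSMB6, PSMB7, PSMD4 and PSMG3 were not matched. All of these but PSMD4 were called higher, and they are left out of the counts by match. The core TGACNNNGC was searched on both strands and lay in 15 of 55 member windows (27.3%) and in 13.3% of all 35116 windows. Windows of the same gene can overlap and are not independent. Of the 14 tested members with a match 8 were called higher, and of the 26 tested members without a match 19 were. The heat shock element, GAANNTTC or TTCNNGAA, lay in 9.09% of member windows and 13.5% of all windows, the E-box CACGTG in 9.09% and 7.26%, and the CCAAT box, CCAAT on either strand, in 43.6% and 34.6%. The windows of the 3 called members with the largest rise among those that hold the core, and of PSME1, which holds it and fell, are shown 5′ to 3′ along the gene with the match in capitals. They are chr2:231056617-231056916 (plus strand) for PSMD1, chr17:67366528-67366827 (minus strand) for PSMD12, chr15:78540536-78540835 (plus strand) for PSMA4 and chr14:24135944-24136243 (plus strand) for PSME1.
PSMD1: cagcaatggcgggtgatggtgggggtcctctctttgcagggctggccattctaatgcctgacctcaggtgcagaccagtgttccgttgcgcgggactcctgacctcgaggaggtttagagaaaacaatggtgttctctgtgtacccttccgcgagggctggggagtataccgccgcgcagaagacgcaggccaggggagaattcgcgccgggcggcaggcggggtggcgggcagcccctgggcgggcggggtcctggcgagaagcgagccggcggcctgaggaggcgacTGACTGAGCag
PSMD12: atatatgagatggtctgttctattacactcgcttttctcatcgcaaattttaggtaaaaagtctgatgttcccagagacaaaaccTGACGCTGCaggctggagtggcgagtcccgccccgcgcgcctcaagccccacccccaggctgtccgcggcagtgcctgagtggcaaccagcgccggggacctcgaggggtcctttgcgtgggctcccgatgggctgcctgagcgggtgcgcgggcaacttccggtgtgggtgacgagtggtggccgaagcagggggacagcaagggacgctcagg
PSMA4: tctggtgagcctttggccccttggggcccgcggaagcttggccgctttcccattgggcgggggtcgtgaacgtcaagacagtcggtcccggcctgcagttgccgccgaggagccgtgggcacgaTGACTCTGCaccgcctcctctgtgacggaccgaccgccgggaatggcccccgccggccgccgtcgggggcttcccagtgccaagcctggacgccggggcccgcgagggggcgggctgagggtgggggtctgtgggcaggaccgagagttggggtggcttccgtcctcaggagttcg
PSME1: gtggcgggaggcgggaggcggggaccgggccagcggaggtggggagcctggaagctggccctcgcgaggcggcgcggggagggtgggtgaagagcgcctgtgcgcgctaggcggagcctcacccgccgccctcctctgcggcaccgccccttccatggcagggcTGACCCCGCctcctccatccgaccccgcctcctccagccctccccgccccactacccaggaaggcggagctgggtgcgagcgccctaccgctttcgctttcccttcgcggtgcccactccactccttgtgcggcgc
The match begins at base -165 relative to the start in PSMD12, at -126 in PSMA4, at -86 in PSME1 and at 40 in PSMD1. A match is not a binding site, and the part of NFE2L1 in these changes was not tested.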

How the data were processed

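PolyA+ RNA of 6 libraries was measured. Per the submitters' processing notes Trim Galore 0.6.4, STAR 2.7.9a, RSEM and GRCh38.p13 were used by the authors. No source names the annotation or strand setting. The deposited whole numbers were taken for RSEM's rounded estimated counts. Of 60708 identifiers, 44 pseudoautosomal copies were added to their X copies. Symbols came from a table of gene names, biotypes, positions and lengths from GENCODE release 29 (GRCh38, 1-based), and sequences from RefSeq. RSEM shares reads among near-identical genes.

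KD was set against SCR in edgeR 4.0.16 under R 4.3.3 (filterByExpr, TMM, quasi-likelihood F test, no covariate). Each p was 2-sided and adjusted over 14673 genes. The SE was obtained from the log2 change and its F statistic. TPM uses the longest APPRIS principal transcript. No replicate pair was a repeated library, chi-square over degrees of freedom lying between 2.81 and 16.5 within groups. The test was tried on simulated counts only as a check of the code. They held independent genes and far fewer changed genes than were called here, so no result rests on them. Alternatives were RLE and upper-quartile scaling, other filters, DESeq2 1.42.0, limma-voom (limma 3.58.1), a replicate block, each library left out, a threshold of 0.01, and pseudogene counts added to the parent. All members were to be named, with up to 4 genes per list by adjusted p. Members and lists were chosen with earlier results of these data known. The list of ubiquitin genes and E1 enzymes is not reported here.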

Additional observations from a re-analysis of the deposited data

How the results depend on the processing

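The count of 33 called members was 33 under RLE scaling, limma-voom, either other filter, added pseudogene counts and the replicate block, 30 under upper-quartile scaling (PSMA6, PSMB4 and PSMB7 lost), 36 by DESeq2, 25 at an adjusted p under 0.01 and 22 to 36 without each library in turn. The share called over all genes tested moved too. It was 31.7% as reported, 31.2% under upper-quartile scaling and 28.5% by DESeq2. With a library left out it ran from 18.3% (without SCR library 2) to 33.9% (without SCR library 1). Those settings also gave the 22 and the 36 called members. Same-numbered libraries did not deviate together (r = 0.0315, 0.0963 and -0.0334), so the numbers were not taken as pairs. The replicate block changed no call of a member. Upper-quartile scaling turned 3 uncalled genes, PSME2 (-0.0305), PSMC3IP (-0.0403) and PSME3IP1 (-0.0241), with the median of the last pair at -0.0322, and put the median of the other activators and PSMF1 at 0.0142. At an adjusted p under 0.01, 0 members were called lower, 3 beta ring genes higher and PSMB10 not called (0 of 1 inducible gene). DESeq2 called 2 of the other activators higher. With no low-count filter the median of the inducible subunits was -1.78 in place of 0.53, because PSMB8 and PSMB9 enter with 3 and 1 counts in all. The smallest and largest values without each library were 0 and 1 for members called lower, 4 and 7 for the alpha ring called higher, 3 and 6 for the beta ring, 0 and 1 for inducible subunits, 1 and 3 for base non-ATPases, 0 and 2 for base chaperones, 1 and 2 for core chaperones, and 1 and 2 for the other activators. Log2 changes that turned sign ran from -0.00412 to 0.13 for PSMD14, -0.0855 to 0.0551 for PSMG4, -0.0432 to 0.0794 for PSME2, -0.0514 to 0.13 for PSMC3IP and -0.0108 to 0.11 for PSME3IP1, and from -0.0124 to 0.0863 for the median of PSMC3IP and PSME3IP1. Under upper-quartile scaling the median log2 change over all genes tested also moved, from 0.000282 to -0.0576. Apart from the change of low-count filter, the cause of the differences between settings was not tested. Counts of KD library 1 limit the precision of low members most.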

Other observations

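Pseudogenes named after members held few counts. Of 44 pseudogenes 36 had no count in any library and 3 had more than 20 in all. PSMC1P1 held 145, 422 and 358 counts in KD libraries 1 to 3, which is 7.98%, 7.93% and 7.80% of the count of PSMC1. In SCR libraries 1 to 3 it held 250, 256 and 167 counts, or 7.50%, 7.16% and 6.30% of PSMC1. The shares do not overlap between the groups, and how RSEM divided reads between PSMC1 and this copy was not tested.

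Same-strand genes that share exons with members also held counts. The gene that shares 919 exon bases with PSMA6 held 250, 589 and 537 counts in KD and 562, 482 and 474 counts in SCR libraries. The gene that shares 781 exon bases with PSMA2 held 60, 226 and 286 counts in KD and 184, 226 and 129 counts in SCR libraries.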
